A study of Mus musculus with 16 samples.

Results

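Respiratory complex I, the NADH dehydrogenase of the inner mitochondrial membrane, is described here through the genes whose symbols begin with Nduf. Rows of the count table were taken when their Ensembl identifier mapped to a protein-coding mouse gene with such a symbol, which gave 46 of 53801 rows. They comprise 36 nuclear-encoded subunits, 8 assembly factors (Ndufaf genes), and the related pair Ndufa4 and Ndufa4l2. Of the 46 genes 45 passed the filter on low counts and were tested, and Ndufa4l2 did not pass. Another 5 rows with Nduf symbols were left out because GENCODE vM21 does not class them as protein-coding.

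Complex I takes electrons from NADH in its N module, passes them along iron-sulfur clusters to ubiquinone in its Q module, and pumps protons through a membrane arm. Its core subunits carry out this chemistry, with the proton-pumping ones encoded by mitochondrial DNA (mt-Nd genes), while the accessory subunits surround and stabilise the core. Assembly factors help build the enzyme and are absent from the finished complex, and low oxygen is known to lower the activity of the respiratory chain in many cell types.

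The cells were an MLL-AF9 AML line, a murine acute myeloid leukemia carrying that fusion, grown in RPMI medium with FBS, IL-3 and SCF, and their poly(A) RNA was sequenced. MCT4-KO cells, in which the lactate and proton exporter MCT4 (gene Slc16a3) was targeted, and control cells were each kept at 2% and at 20% oxygen. Knockout was by CRISPR-Cas9, and the controls carried a non-targeting guide RNA. Cas9 was switched on with 4-OHT (4-hydroxytamoxifen) in all groups, so the controls share that treatment, and the labels do not say whether the knockout cells are 1 clone. The 4 groups, MCT4-KO at 2%, control at 2%, MCT4-KO at 20% and control at 20% oxygen, held 4 libraries each. Nothing in the labels says that a group's libraries came from separate cultures, and the p-values then reflect only how these libraries vary, possibly for technical reasons.

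Promoter sequences are shown for the member that rose most at low oxygen (Ndufv3), the member that fell most (Ndufaf4), and Ndufaf3, the partner of Ndufaf4 in building the Q module, which went the opposite way. Each line gives the 250 bases before the gene's start on its own strand, 5′ to 3′, from RefSeq (GRCm38.p6), at chr17:31519865-31520114 (plus strand), chr4:24897833-24898082 (plus) and chr9:108567437-108567686 (minus). Capitals mark matches to the hypoxia response cores ACGTG and GCGTG or to the NRF1 core GCATGCG, on either strand.
Ndufv3: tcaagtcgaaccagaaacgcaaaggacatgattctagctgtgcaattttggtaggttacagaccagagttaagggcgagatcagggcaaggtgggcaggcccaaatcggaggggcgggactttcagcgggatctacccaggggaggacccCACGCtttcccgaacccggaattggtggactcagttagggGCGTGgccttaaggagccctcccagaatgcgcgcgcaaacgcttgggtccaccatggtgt
Ndufaf4: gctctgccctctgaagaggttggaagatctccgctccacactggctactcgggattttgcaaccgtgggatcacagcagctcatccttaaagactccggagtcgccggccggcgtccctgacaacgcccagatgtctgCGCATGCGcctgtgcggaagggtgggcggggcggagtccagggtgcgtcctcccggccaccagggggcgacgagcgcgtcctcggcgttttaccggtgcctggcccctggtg
Ndufaf3: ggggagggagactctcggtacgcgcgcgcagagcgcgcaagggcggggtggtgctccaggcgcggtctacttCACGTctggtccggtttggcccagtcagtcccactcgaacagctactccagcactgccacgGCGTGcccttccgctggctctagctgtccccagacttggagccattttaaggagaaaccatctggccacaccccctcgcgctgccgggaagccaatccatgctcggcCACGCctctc

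The Ndufv3 stretch holds 2 matches to GCGTG, and the Ndufaf3 stretch holds 2 to GCGTG and 1 to ACGTG. The Ndufaf4 stretch holds the NRF1 core on both strands at overlapping positions and neither hypoxia core. Windows of 300 bases (250 before to 50 after the start, both strands) were examined for 40 members. There GCGTG occurred in 21 members (52.5%, against 32.2% of 27025 promoters) and ACGTG in 7 (17.5%, against 19.5%). By class GCGTG was in 14 of 32 subunits and 6 of 7 assembly factors, and ACGTG in 6 and 1. The 3 printed genes were chosen by their changes, and other members differed from them. Ndufaf2, which fell at low oxygen, held 2 matches to GCGTG, and Ndufc1, which rose, held neither hypoxia core. Whether matches went with the direction of change over the members was not tested. The 3 printed stretches held 57.6%, 66.4% and 65.6% G and C, against a mean of 52% over the first 250 bases of all windows. The motif shares were not adjusted for G and C content. GCATGCG occurred in 5 members (12.5%, against 3.64%), the YY1 motif AAGATGG in 8 (20.0%, against 6.46%) and the GABP motif CCGGAAG in 6 (15.0%, against 9.08%). None of the 5 motifs contains another on either strand, and a match describes letters in a window, not a bound site.

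Library-wide facts bear on the values. Total estimated counts were 21192179 to 28871459 per library, and levels are CPM, counts set to a common library size, scaled by TMM, edgeR's scaling that centres most genes on no change. The TMM factors were 0.912 to 0.953 at 2% oxygen and 1.06 to 1.08 at 20%, so the oxygen comparisons depend on the scaling. Scaling by library size alone moves the median of all genes by -0.178 (MCT4-KO) and -0.205 (control) on the log2 scale in the oxygen comparisons. Among controls at 2% oxygen replicate 4 lay off from the rest, with a chi-square of 8.33 to 12.4 per gene against the other controls there, which differed among themselves by 2.52 to 3.31. Pairs at 20% oxygen also differed, by 3.47 to 8.95 in controls, where replicate 3 lay farthest from replicates 1 and 2 (8.95 and 8.64). In MCT4-KO cells pairs differed by 2.47 to 7.48 at 20% and by 1.76 to 2.77 at 2%. Slc16a3 was lower in MCT4-KO libraries, with 358 to 370.3 CPM against 789 to 844 CPM in control at 2% oxygen and 70.4 to 94.7 CPM against 184 to 235 CPM in control at 20%. Of 10 myeloid markers 9 averaged at least 1 CPM over all 16 libraries (Csf1r was below). The summed level of the 10 was 2395 to 2429 CPM (MCT4-KO, 2%), 2262 to 2354 (control, 2%), 2024 to 2068 (MCT4-KO, 20%) and 1788 to 1856 CPM (control, 20%). Of the markers of other cells, 1 of 8 erythroid (Klf1), 1 of 6 B cell (Ighm), 1 of 6 T cell (Lck) and 2 of 8 stromal or endothelial markers (Pdgfrb and Pecam1) averaged at least 1 CPM over all 16 libraries. Slc4a1, Cd3e, Cd4, Cdh5, Col1a2 and Kdr were at 0 in every library. The summed levels moved with oxygen: the T cell list had 10.1 to 14.6 CPM at 2%, against 28.6 to 37.5 CPM at 20%, and the B cell list 19.1 to 23.7 CPM, against 32.4 to 36.4 CPM. The stromal and endothelial list had 261 to 303 CPM at 2%, against 180.4 to 188 CPM at 20%, and the erythroid list 2.85 to 4.95 CPM, against 1.30 to 2.14 CPM. The part of these markers in the complex I values was not tested. In bulk RNA, fewer cells of a kind and less RNA per cell cannot be told apart. Levels are shares of each library, since the labels mention no spike-in.

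Levels between genes are compared per kb of exon. In control cells at 20% oxygen the subunits ran from 104 CPM per kb for Ndufc2, a membrane arm subunit, down to 4.88 for Ndufb2, with a median of 35.0. The assembly factors were lower, with medians of 7.12 (MCT4-KO, 2%), 6.90 (control, 2%), 7.80 (MCT4-KO, 20%) and 8.25 CPM per kb (control, 20%), against 45.4, 44.5, 35.6 and 35.0 for the subunits. Ndufaf8, the partner that stabilises Ndufaf5, was the assembly factor with the highest level per kb in every group (17.4 to 18.7 CPM per kb). Only 7 of 45 neighbouring pairs in the order of levels in control cells at 20% oxygen had libraries that did not overlap, so most neighbours in that order cannot be ranked. Ndufb2, Ndufab1 and Ndufb4 stood among the assembly factors in this order. With the longest coding transcript as the length, the subunit medians were 76.8, 72.5, 54.2 and 55.7 CPM per kb in the same group order, and those of the assembly factors 10.2, 9.56, 9.81 and 9.97. The order of single genes depends on that choice. In control cells at 20% oxygen Ndufa6 had 39.6 CPM per kb of exon but 121 per kb of that transcript, and Ndufa7 31.1 but 108. Ndufa1 had 56.7 with either length.

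**Figure D1:**
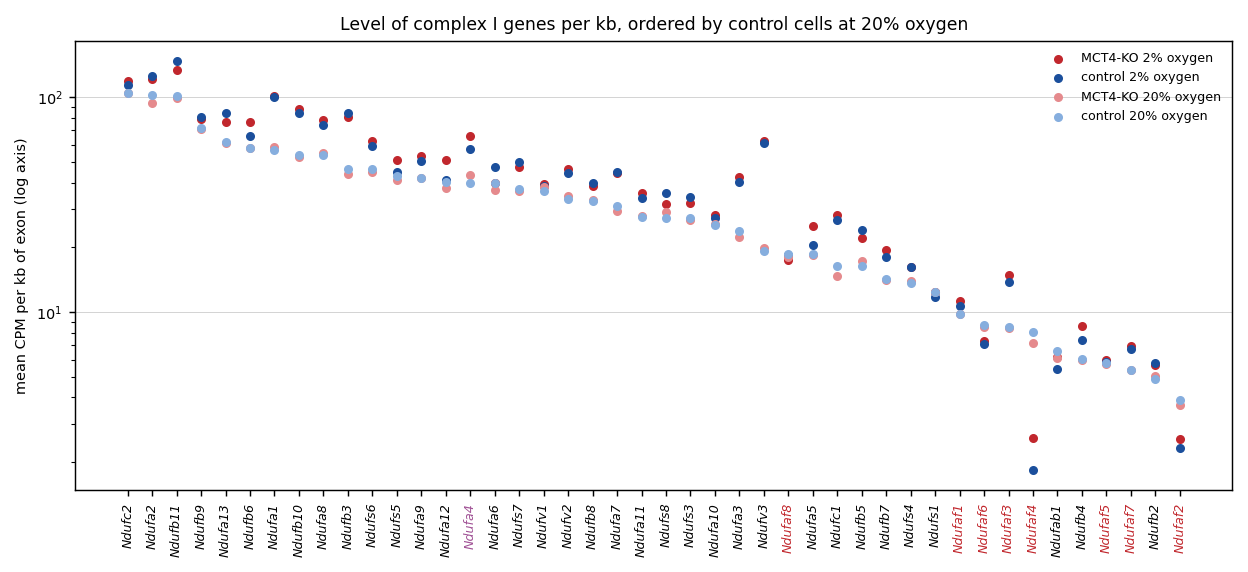
Mean level (CPM per kb of exon, log axis, n = 4 libraries) of 44 of the 45 tested genes in the 4 groups, ordered by control cells at 20% oxygen, with assembly factor names in red and Ndufa4 in purple. Assembly factors cluster at the low end, and Ndufv3 and Ndufaf4 are the genes whose points at 2% and 20% oxygen lie farthest apart.

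Most subunits were higher at 2% oxygen in both genotypes, while assembly factors were found in both directions. In MCT4-KO cells 31 of 36 subunits rose and 0 fell at 2% against 20% oxygen (edgeR quasi-likelihood test, adjusted p under 0.05), where 37.7% of the 13774 genes tested rose and 38.7% fell. In control cells 29 of 36 rose and 2 fell, where 38.7% of all genes rose and 39.6% fell. The median log2 fold change of the subunits was 0.36 in MCT4-KO and 0.31 in control cells, beside -0.014 and -0.017 over all genes. The assembly factors had medians of 0.0041 and -0.0046: 3 of 8 rose and 3 fell in MCT4-KO cells, and 2 rose and 3 fell in control cells. Of all members 30 rose and 3 fell in both genotypes. The share of all tested genes that did so was not counted, so these 2 counts stand without a background.

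These counts depend on the scaling. Scaled by library size, 22 subunits rose and 3 fell in MCT4-KO cells (median 0.19), and 17 rose and 5 fell in control cells (median 0.11). Those are 61.1% and 8.33% of the subunits in MCT4-KO cells, where 27.6% of all tested genes rose and 50.4% fell under this scaling. In control cells they are 47.2% and 13.9%, where 28.1% of all tested genes rose and 51.7% fell. The 3 that fell in MCT4-KO cells under it were Ndufab1, Ndufs1 and Ndufv1, and in control cells Ndufa10 and Ndufa12 joined them. Of the assembly factors 2 rose and 4 fell in MCT4-KO cells, and 1 rose and 5 fell in control cells. The difference between the subunit and assembly factor medians (0.36 in MCT4-KO, 0.32 in control) compares genes within the same libraries.

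**Figure D2:**
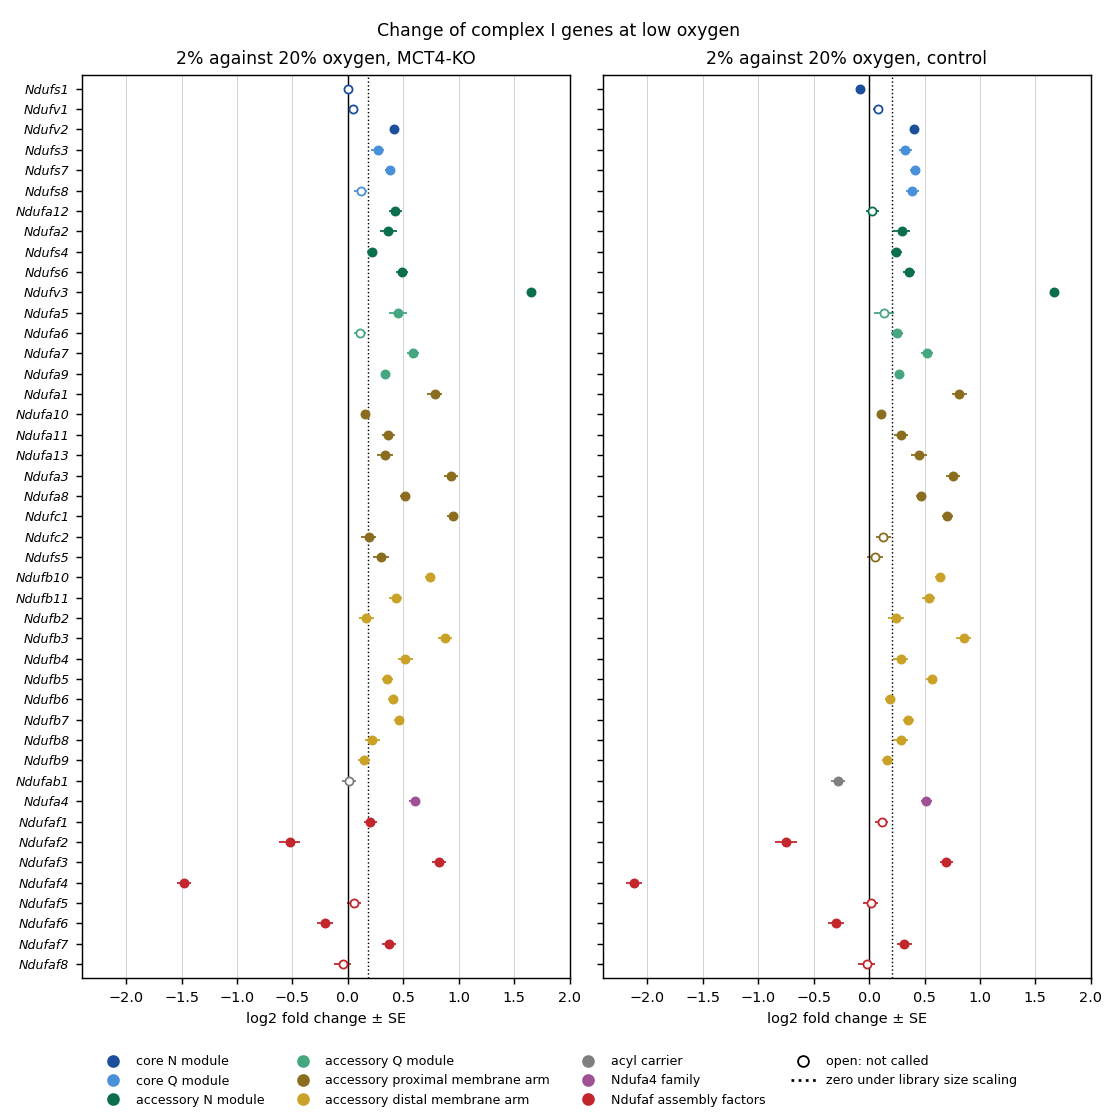
Log2 fold change at 2% against 20% oxygen (horizontal axis, ± SE, n = 4 libraries per group) of 44 of the 45 tested genes in MCT4-KO and control cells, coloured by role, where filled points passed edgeR's adjusted p of 0.05. Most subunits lie right of 0 while Ndufaf2, Ndufaf4 and Ndufaf6 lie left of it; the dotted line marks where 0 falls under library size scaling, and genes between the 2 lines change sign there.

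Among the core subunits of the N module, Ndufv2, which carries an iron-sulfur cluster, rose. It had 99.97, 101, 97.0 and 98.9 CPM at 2% in MCT4-KO libraries, against 72.1, 74.3, 75.8 and 76.2 CPM at 20%. In control libraries it had 92.8, 94.95, 98.4 and 95.3 CPM at 2%, against 70.5, 76.2, 72.2 and 68.7 CPM at 20%. No library at 2% overlapped one at 20%, and Ndufv2 rose by 0.41 ± 0.034 and 0.41 ± 0.035 on the log2 scale (edgeR adjusted p = 8.67e-10 and 1.03e-09). Its neighbours differed: Ndufv1, which binds NADH and its flavin, had changes of 0.047 and 0.082 that did not pass the test (edgeR adjusted p = 0.349 and 0.107). Ndufs1, the largest core subunit, changed by 0.0025 in MCT4-KO and -0.083 in control cells (edgeR adjusted p = 0.950 and 0.0320), and the control call was lost under DESeq2, the replicate block and other alternatives.

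Core subunits of the Q module pass electrons to ubiquinone. Ndufs7, which holds the last iron-sulfur cluster before ubiquinone, had 84.4, 79.9, 81.6 and 79.3 CPM at 2% in MCT4-KO libraries, against 62.4, 60.7, 62.3 and 65.0 CPM at 20%. The control libraries read 82.4, 80.9, 83.3 and 95.4 CPM at 2%, against 64.8, 66.5, 62.0 and 63.0 CPM at 20%. The levels at 2% lay above all those at 20% in each genotype, with changes of 0.38 ± 0.045 and 0.42 ± 0.045 (edgeR adjusted p = 1.92e-07 and 4.18e-08). Ndufs3 rose by 0.27 in MCT4-KO and 0.33 in control cells. Ndufs8 changed by 0.12, short of the test (edgeR adjusted p = 0.0824), in MCT4-KO cells and rose by 0.39 in control cells.

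Of the 5 accessory subunits of the N module, 5 rose in MCT4-KO and 4 in control cells, and Ndufv3 rose most of all members. Among all tested genes 37.7% rose in MCT4-KO and 38.7% in control cells. Ndufv3 (ENSMUSG00000024038, chromosome 17, 31520115 to 31531331, plus strand, GRCm38) is a small subunit at the tip of the peripheral arm. It had 200.5, 192, 199 and 201 CPM at 2% in MCT4-KO libraries, against 59.0, 64.1, 66.5 and 62.4 CPM at 20%. In control libraries it had 195, 195, 199 and 193 CPM at 2%, against 59.2, 65.1, 60.9 and 61.1 CPM at 20%. The groups were far apart, with no overlap, and the rise was 3.15-fold in MCT4-KO and 3.17-fold in control cells (log2 1.65 ± 0.037 and 1.66 ± 0.037, edgeR adjusted p = 4.41e-19 and 3.37e-19). Among the 13774 genes tested, 692 in MCT4-KO and 768 in control cells rose by more. Its exons overlap no other annotated gene and no near-identical copy was found. The other 4 changed far less: Ndufs4 by 0.22 and 0.25, Ndufs6 by 0.48 and 0.36, Ndufa2 by 0.36 and 0.29, and Ndufa12 by 0.43 in MCT4-KO cells, while its control value of 0.029 did not pass.

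**Figure D3:**
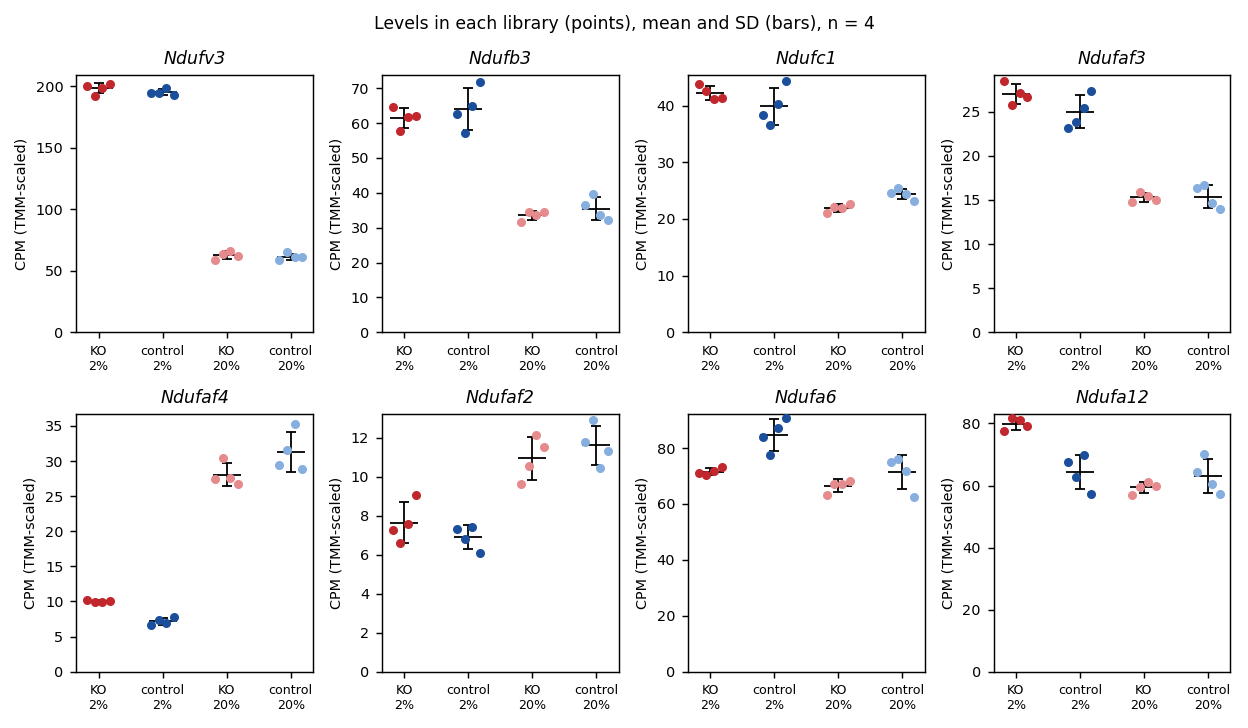
Level (vertical axis, TMM-scaled CPM, from 0) of 8 members in each library, with points for libraries and bars for the mean and 1 SD (n = 4 per group). Ndufv3, Ndufb3, Ndufc1 and Ndufaf3 stand higher at 2% than at 20% oxygen, Ndufaf4 and Ndufaf2 lower, and Ndufa6 and Ndufa12 differ between the genotypes at 2%.

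The accessory subunits around the Q module include Ndufa7, which had 84.1, 80.6, 82.7 and 78.3 CPM at 2% in MCT4-KO libraries, against 51.9, 53.0, 54.1 and 57.7 CPM at 20%. Its control libraries read 76.3, 77.7, 81.6 and 90.4 CPM at 2%, against 58.3, 62.2, 54.9 and 51.9 CPM at 20%. The oxygen levels did not overlap in either genotype, and Ndufa7 rose by 0.59 ± 0.055 and 0.52 ± 0.056 (edgeR adjusted p = 5.78e-09 and 3.45e-08). Ndufa9, which sits beside the quinone channel, rose by 0.33 and 0.27. Ndufa6 rose in control cells (0.25) and Ndufa5 in MCT4-KO cells (0.45), and neither passed in the other genotype (0.11 for Ndufa6 in MCT4-KO and 0.13 for Ndufa5 in control).

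In the proximal membrane arm, where accessory subunits surround the first proton pumps, 9 of 9 rose in MCT4-KO and 7 of 9 in control cells. The shares of all tested genes that rose were 37.7% and 38.7%. Ndufc1, a single-span membrane subunit, had 43.8, 42.5, 41.1 and 41.3 CPM at 2% in MCT4-KO libraries, against 20.99, 22.1, 22.0 and 22.6 CPM at 20%. In the controls it read 38.4, 36.6, 40.2 and 44.3 CPM at 2%, against 24.6, 25.4, 24.4 and 23.3 CPM at 20%. All libraries at 2% lay above those at 20%, with changes of 0.94 ± 0.051 and 0.71 ± 0.051 (edgeR adjusted p = 7.99e-13 and 7.62e-11). Ndufa3 had 43.0, 44.7, 43.5 and 43.2 CPM at 2% in MCT4-KO libraries, against 20.2, 24.3, 23.2 and 23.8 CPM at 20%, and its control libraries had 42.6, 37.0, 41.5 and 42.9 CPM at 2%, against 24.4, 27.0, 24.4 and 21.1 CPM at 20%. It rose by 0.93 ± 0.065 and 0.76 ± 0.066 with no overlap (edgeR adjusted p = 4.92e-11 and 1.24e-09).

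Ndufa1, an X-linked subunit of the same arm needed for its assembly, had 43.9, 40.8, 41.8 and 42.4 CPM at 2% in MCT4-KO libraries, against 21.9, 25.2, 25.1 and 25.9 CPM at 20%. The control values were 41.6, 39.4, 41.5 and 45.05 CPM at 2%, against 26.3, 26.4, 20.5 and 21.9 CPM at 20%. Both oxygen contrasts were free of overlap, at 0.78 ± 0.069 and 0.81 ± 0.07 (edgeR adjusted p = 1.90e-09 and 1.06e-09). Ndufa8, Ndufa11 and Ndufa13 rose in both genotypes, by 0.52, 0.36 and 0.34 in MCT4-KO cells and 0.47, 0.29 and 0.45 in control cells. Ndufa10 rose by 0.15 and 0.11, but its sign flipped under library size scaling (-0.026 and -0.099). Ndufc2 and Ndufs5 rose in MCT4-KO cells (0.19 and 0.30), the call of Ndufc2 being lost without replicate 1 of MCT4-KO at 2%, and did not pass in control cells (0.13 and 0.055).

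All 10 tested subunits of the distal membrane arm rose in both genotypes, where 37.7% (MCT4-KO) and 38.7% (control) of all tested genes rose. But in MCT4-KO cells the call of Ndufb2 was lost without any of 4 libraries (values of 0.13 to 0.19). That of Ndufb9 was lost there without replicate 1 of MCT4-KO at 20%. The Ndufb subunits cover the outer proton pumps, and Ndufb10, a cysteine-rich member, had 111, 105, 110.2 and 101 CPM at 2% in MCT4-KO libraries, against 61.7, 62.4, 66.1 and 65.3 CPM at 20%. In control libraries it read 101, 99.4, 97.6 and 111 CPM at 2%, against 67.0, 66.5, 66.2 and 62.7 CPM at 20%. Those levels did not overlap, with changes of 0.74 ± 0.043 and 0.64 ± 0.043 (edgeR adjusted p = 2.44e-12 and 2.43e-11). Ndufb3 moved most in this arm, with 64.6, 57.8, 61.6 and 62.0 CPM at 2% in MCT4-KO libraries, against 31.5, 34.5, 33.7 and 34.4 CPM at 20%. Its control libraries had 62.5, 57.2, 64.8 and 71.9 CPM at 2%, against 36.5, 39.7, 33.7 and 32.1 CPM at 20%. Ndufb3 was higher at 2% in every comparison of libraries and rose by 0.87 ± 0.065 and 0.85 ± 0.065 (edgeR adjusted p = 1.40e-10 and 1.79e-10).

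The other 8 distal subunits rose by 0.14 (Ndufb9) to 0.52 (Ndufb4) in MCT4-KO cells and by 0.16 (Ndufb9) to 0.56 (Ndufb5) in control cells. Library size scaling turned the sign of Ndufb9 in both genotypes (-0.034 and -0.040), of Ndufb2 in MCT4-KO cells (-0.010) and of Ndufb6 in control cells (-0.016). Ndufb4 has a near-identical copy, Ndufb4c, that held 204% as many counts, so its level is uncertain. The locus Ndufb1-ps, outside the 46 because of its biotype, rose by 0.43 in MCT4-KO and 0.28 in control cells, and RefSeq lists it as the gene Ndufb1.

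Ndufab1, the mitochondrial acyl carrier protein, which also serves fatty acid synthesis and iron-sulfur cluster assembly, was the only subunit that fell by over 0.1. It had 44.8, 44.5, 41.1 and 38.7 CPM at 2% in MCT4-KO libraries, against 40.6, 42.9, 42.9 and 41.9 CPM at 20%, which overlapped. In control libraries it had 34.1, 34.6, 37.1 and 43.9 CPM at 2%, against 47.7, 45.4, 44.3 and 44.1 CPM at 20%, where replicate 4 at 2% lay just below the lowest level at 20%. The changes were 0.0071 ± 0.062 (edgeR adjusted p = 0.924) and -0.28 ± 0.063 (edgeR adjusted p = 4.48e-04). Near-identical copies of Ndufab1 held 24.5% as many counts as the gene, so its share of reads is uncertain.

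Transcript length moved with these changes. Across the 36 subunits Spearman's rho between the length of the longest coding transcript and the oxygen change was -0.46 in MCT4-KO and -0.31 in control cells, and across 11956 protein-coding genes it was -0.11 and -0.13. Genes are not independent replicates and share the libraries. The 657 tested protein-coding genes with transcripts under 1000 bases had median changes of 0.26 (MCT4-KO) and 0.31 (control), against 0.45 and 0.35 for the 19 subunits of that length. The other 17 subunits had medians of 0.22 and 0.28, against -0.017 and -0.027 for the 11299 longer genes. The part of length in the subunits' changes was not tested.

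The assembly factors went in both directions. Ndufaf4 (ENSMUSG00000028261, chromosome 4, 24898083 to 24905001, plus strand, GRCm38), which acts with Ndufaf3 on the early Q module, had 10.2, 9.95, 9.94 and 10.1 CPM at 2% in MCT4-KO libraries, against 27.4, 30.4, 27.5 and 26.7 CPM at 20%. In control libraries it had 6.70, 7.34, 6.93 and 7.77 CPM at 2%, against 29.5, 31.5, 35.3 and 28.9 CPM at 20%. The oxygen levels were far apart and the 2% levels were 0.359 times the 20% levels in MCT4-KO and 0.23 times in control cells (log2 -1.48 ± 0.066 and -2.12 ± 0.07, edgeR adjusted p = 3.30e-14 and 1.88e-16). Of the 13774 genes tested, 401 in MCT4-KO and 203 in control cells fell by more. Its exons overlap no other annotated gene.

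Ndufaf3, the partner of Ndufaf4, went the opposite way, with 28.5, 25.8, 27.1 and 26.6 CPM at 2% in MCT4-KO libraries, against 14.8, 15.9, 15.4 and 15.0 CPM at 20%. Control libraries held 23.2, 23.9, 25.5 and 27.4 CPM at 2%, against 16.3, 16.7, 14.6 and 14.0 CPM at 20%. Every library at 2% was higher than every one at 20% of its genotype, with rises of 0.82 ± 0.061 and 0.70 ± 0.062 (edgeR adjusted p = 1.23e-10 and 1.89e-09). Ndufaf7, an arginine methyltransferase of complex I assembly, rose by 0.37 and 0.32. Ndufaf1, part of the complex that builds the membrane arm, rose by 0.20 in MCT4-KO cells and did not pass in control cells (0.11).

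Ndufaf2, a paralogue of Ndufa12 that holds its place during assembly, had 7.30, 6.61, 7.56 and 9.09 CPM at 2% in MCT4-KO libraries, against 9.61, 10.6, 12.1 and 11.5 CPM at 20%. In the controls it had 7.30, 6.82, 7.45 and 6.08 CPM at 2%, against 11.8, 12.9, 10.4 and 11.3 CPM at 20%. It was lower at 2% without overlap, with changes of -0.53 ± 0.095 and -0.75 ± 0.097 (edgeR adjusted p = 4.16e-05 and 5.51e-07), although its exons share 1955 bases with B230220B15Rik and the strand setting is not given. Ndufaf6, a factor for the Q module, had 9.37, 8.41, 9.46 and 8.86 CPM at 2% in MCT4-KO libraries, against 11.3, 10.1, 9.96 and 10.5 CPM at 20%. Control libraries read 8.43, 8.25, 8.96 and 9.51 CPM at 2%, against 12.3, 10.6, 9.78 and 10.5 CPM at 20%. The gaps between oxygen levels were narrow but free of overlap, with changes of -0.21 ± 0.072 and -0.30 ± 0.074 (edgeR adjusted p = 0.0129 and 0.00102). Ndufaf5, which hydroxylates Ndufs7, and Ndufaf8 did not pass in either genotype (0.055 and 0.013 for Ndufaf5, -0.047 and -0.022 for Ndufaf8).

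**Figure D4:**
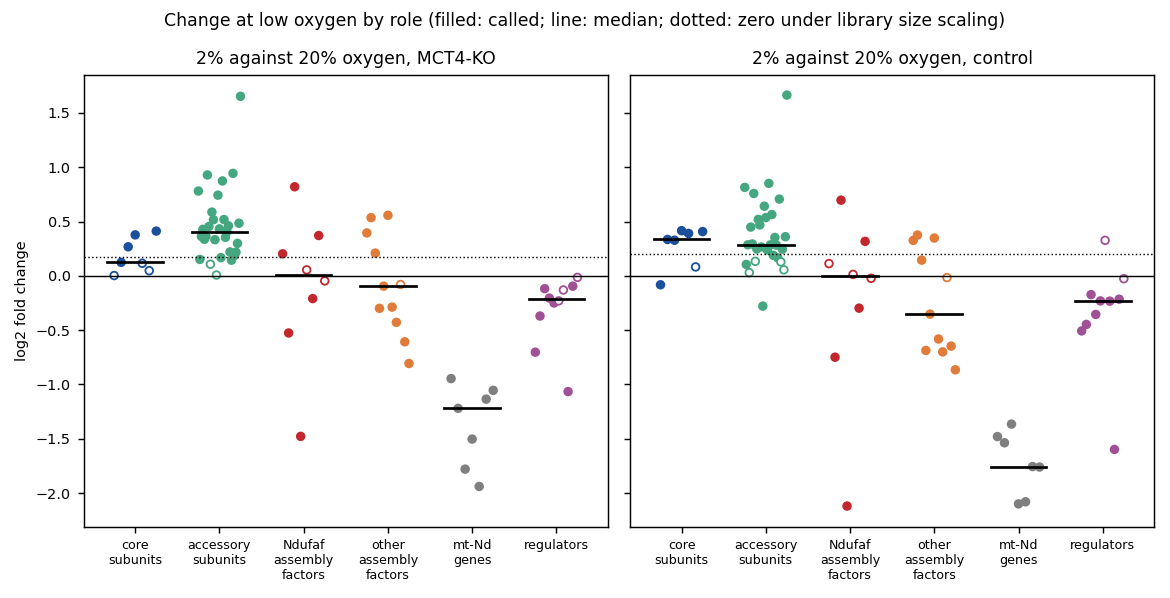
Log2 fold change at 2% against 20% oxygen (vertical axis) in MCT4-KO and control cells, by role, where each point is a gene, filled points passed edgeR's adjusted p of 0.05 and bars are medians. Subunits sit mostly above 0, the assembly factors span 0, and all 7 mt-Nd genes and most regulators lie below it; the dotted line marks where 0 falls under library size scaling, and points between the 2 lines change sign there.

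Other genes of the pathway came from lists chosen with earlier results of these data known. Of 12 further assembly factors 11 were tested, and in each genotype 4 rose (Acad9, Aifm1, Dmac1 and Nubpl) and 6 fell (Ecsit, Foxred1, Timmdc1, Tmem126a, Tmem186 and Tmem70), where the shares of all genes were as given above. Tmem70, which acts in the assembly of complex I and of ATP synthase, fell to 35.6 ± 1.21 CPM at 2%, against 62.3 ± 1.05 CPM at 20%, in MCT4-KO cells (SD, n = 4; -0.81 ± 0.035). In control cells it stood at 33.6 ± 1.0 CPM at 2%, against 61.2 ± 1.5 CPM at 20% (SD, n = 4; -0.87 ± 0.035). Scaled by library size, 3 of the 11 rose (27.3%) and 7 fell (63.6%) in each genotype, beside the shares of all genes under that scaling.

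All 7 mitochondrially encoded subunits (mt-Nd genes) fell at 2% in both genotypes, opposite to most nuclear-encoded subunits, with medians of -1.22 in MCT4-KO and -1.76 in control cells. Of all tested genes 38.7% fell in MCT4-KO and 39.6% in control cells. The direction was the same for all 7 under library size scaling. The summed level of the mt-Nd genes was 961 ± 85.0 CPM at 2%, against 2197 ± 223 CPM at 20%, in MCT4-KO cells (SD, n = 4). It was 696 ± 142 CPM at 2%, against 2256 ± 555 CPM at 20%, in control cells. The 36 nuclear subunits summed to 2802 ± 43.2 CPM at 2%, against 2137 ± 66.3 CPM at 20%, in MCT4-KO cells, and to 2805 ± 173 against 2149 ± 110.3 CPM in control cells. The ratio of the sums over nuclear subunits and over the 8 Ndufaf genes, which no scaling alters, was 23.3 ± 0.525 at 2%, against 17.3 ± 0.401 at 20%, in MCT4-KO cells. In control cells it was 24.8 ± 0.466 at 2%, against 16.7 ± 0.400 at 20%, and no library at 2% reached down to those at 20%. Ndufaf4 weighed on this ratio. In MCT4-KO cells its mean was 10.06 CPM at 2%, against 28.02 CPM at 20%, while the Ndufaf sum was 120.1 against 123.4 CPM. In control cells Ndufaf4 had 7.19 against 31.3 CPM, and the sum was 113 against 128.5 CPM. The other Ndufaf genes together were thus higher at 2% in both genotypes. The ratio without Ndufaf4 was not computed.

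Of 10 regulators of mitochondrial genes 7 fell in MCT4-KO (70%) and 8 in control cells (80%) at 2% oxygen, and 0 rose. Of all tested genes 38.7% fell in MCT4-KO and 39.6% in control cells. Scaled by library size, 9 of the 10 (90%) fell in each genotype, where 50.4% and 51.7% of all tested genes fell. Pprc1, a coactivator related to PGC-1, was among them, with changes of -1.07 in MCT4-KO and -1.60 in control cells. Esrra, an orphan nuclear receptor that drives respiratory genes, changed by -0.70 and -0.51.

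Ndufa4 was long counted in complex I and is now placed in cytochrome c oxidase. It had 93.2, 92.4, 92.2 and 88.2 CPM at 2% in MCT4-KO libraries, against 54.6, 60.5, 64.9 and 60.9 CPM at 20%. Control libraries had 76.9, 74.1, 79.0 and 85.1 CPM at 2%, against 57.96, 58.2, 52.4 and 51.5 CPM at 20%. It stood higher at 2% without overlap and rose by 0.60 ± 0.052 and 0.52 ± 0.053 (edgeR adjusted p = 1.38e-09 and 1.76e-08).

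Ndufa4l2, its paralogue, is induced by low oxygen in many cell types and lowers complex I activity there, and here it was near absent. Its counts were 1, 0, 2 and 1 in MCT4-KO libraries at 2%, against 5, 5, 7 and 5 at 20%. In control libraries they were 2, 0, 1 and 2 at 2%, against 6, 10, 11 and 6 at 20%. No library at 2% reached the lowest count at 20%, and the ratio of summed levels was 0.197 (95% exact interval 0.0493 to 0.579) in MCT4-KO and 0.171 (0.0520 to 0.44) in control cells. The intervals cover counting error only, a count of 0 allows up to 3, and 32 bases of its exons overlap Shmt2. Between the genotypes the ratio of MCT4-KO to control was 0.743 (0.147 to 3.45) at 2% and 0.644 (0.358 to 1.14) at 20%, so no difference was detectable at these counts.

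At 2% oxygen the knockout shifted a few members by small amounts and in both directions. Of 45 tested members 7 rose (15.6%) and 4 fell (8.89%) in MCT4-KO against control cells (edgeR adjusted p under 0.05), where 19.4% of all tested genes rose and 19.1% fell. Among the subunits 5 of 36 rose and 4 fell, and among the assembly factors 1 of 8 rose. The counts rest on replicate 4 of the controls at 2%: without it 16 members rose (35.6%) and 2 fell (4.44%), where 18.4% of all tested genes rose and 18.1% fell, and 13 of those that rose were subunits. Scaled by library size, 17 rose (37.8%) and 2 fell (4.44%), where 24.95% of all tested genes rose and 14.6% fell. The members' share of rises was thus below that of all genes in the reported fit and above it under both of these alternatives.

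**Figure D5:**
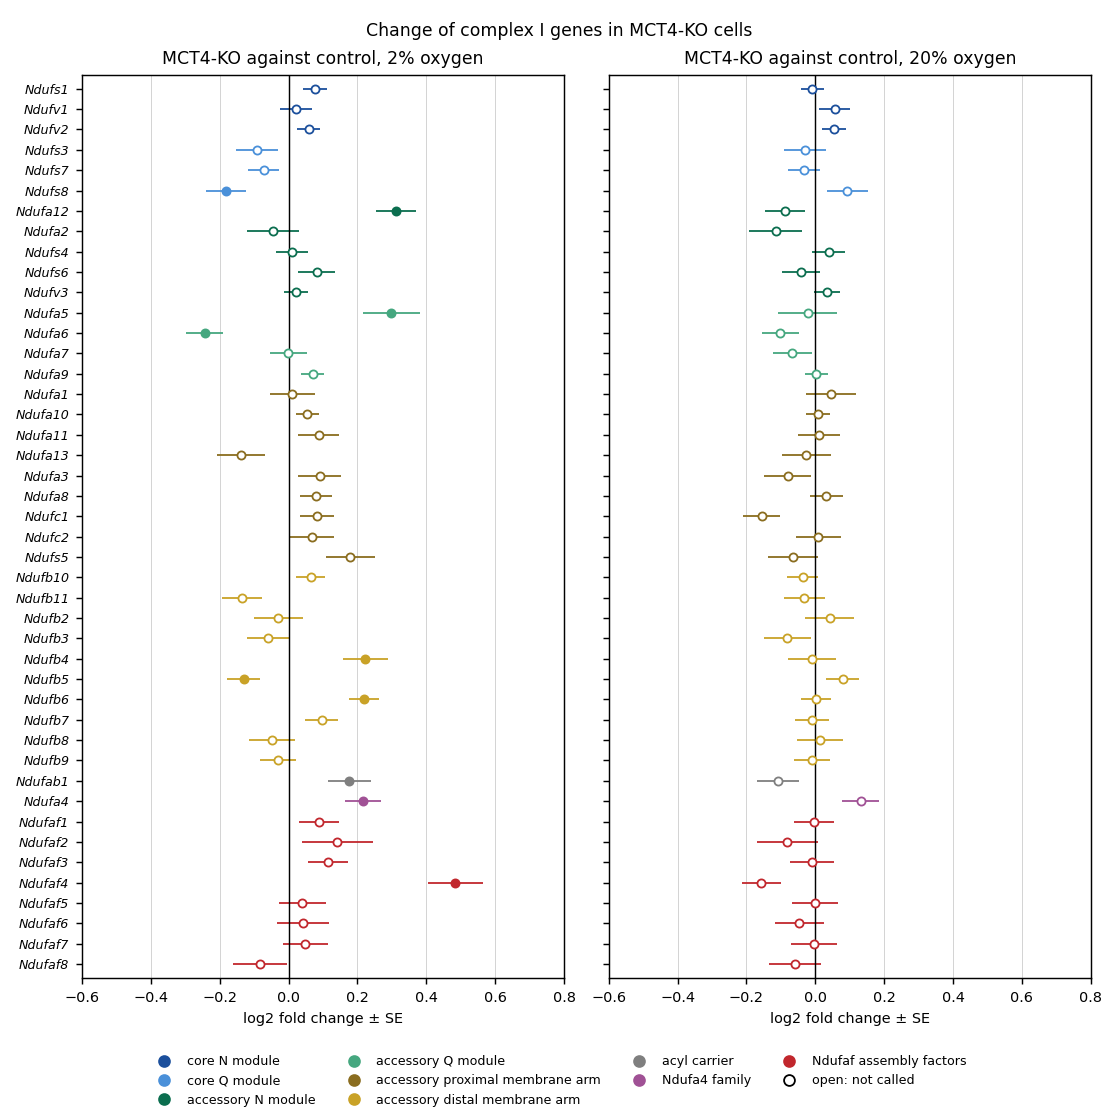
Log2 fold change in MCT4-KO against control cells (horizontal axis, ± SE, n = 4 libraries per group) of 44 of the 45 tested genes at 2% and at 20% oxygen, coloured by role, where filled points passed edgeR's adjusted p of 0.05. At 2% the filled points are 7 to the right and 3 to the left of 0, and at 20% none is filled.

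Ndufaf4 rose most, with 10.2, 9.95, 9.94 and 10.1 CPM in MCT4-KO libraries, against 6.70, 7.34, 6.93 and 7.77 CPM in control libraries at 2%. The knockout libraries lay close together above every control, at 0.48 ± 0.081 (edgeR adjusted p = 9.21e-05). Ndufa12 had 77.5, 81.8, 81.1 and 79.1 CPM in MCT4-KO libraries, against 67.6, 62.8, 69.7 and 57.4 CPM in control libraries at 2%, with no overlap and a rise of 0.31 ± 0.057 (edgeR adjusted p = 2.50e-04). Ndufa5 read 28.1, 24.6, 25.4 and 25.7 CPM in MCT4-KO libraries, against 20.6, 19.1, 21.6 and 23.1 CPM in controls. These did not overlap either, and Ndufa5 rose by 0.30 ± 0.084 (edgeR adjusted p = 0.00789). Ndufb6 had 51.7, 48.6, 50.9 and 50.9 CPM in MCT4-KO libraries, against 42.6, 41.6, 42.9 and 46.5 CPM in controls, without overlap (0.22 ± 0.043, edgeR adjusted p = 4.88e-04). Ndufa4 also stood above every control library at 2% (0.22 ± 0.051, edgeR adjusted p = 0.00233). Ndufb4 (0.22) and Ndufab1 (0.18), both with near-identical copies, also rose, and the call of Ndufab1 was lost under the replicate block, in a fit of the 2 groups alone and without any of 5 libraries.

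Among the members that fell at 2% was Ndufa6, an accessory Q module subunit that binds the acyl carrier protein. It had 71.0, 70.3, 71.8 and 73.2 CPM in MCT4-KO libraries, against 83.8, 77.3, 87.0 and 90.8 CPM in controls, with no overlap and a change of -0.24 ± 0.054 (edgeR adjusted p = 0.00127). Ndufs8, a core subunit of the Q module, had 40.9, 41.4, 40.7 and 40.5 CPM in MCT4-KO libraries, against 44.6, 42.5, 46.5 and 51.9 CPM in controls (-0.18 ± 0.059, edgeR adjusted p = 0.0193). That gap was free of overlap, but without replicate 4 of the controls the value was -0.12 and no longer passed. Ndufb5, a distal arm subunit whose exons share 616 bases with Mrpl47, had 112, 111, 114 and 104 CPM in MCT4-KO libraries, against 116, 113, 119 and 134 CPM in controls. The genotypes overlapped (-0.13 ± 0.048, edgeR adjusted p = 0.0367), and the call was lost without any of 5 libraries. Ndufv3, the member that rose most at low oxygen, was not changed detectably by the knockout at 2% (0.023 ± 0.035) or at 20% (0.034 ± 0.038).

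Of the further assembly factors 5 of 11 rose (45.5%) and 0 fell in MCT4-KO cells at 2%, where 19.4% of all tested genes rose and 19.1% fell. Among those that rose were Ecsit, a partner of Ndufaf1, by 0.33, and Timmdc1, which acts beside Ndufaf3 and Ndufaf4, by 0.21. Of the mt-Nd genes 5 of 7 rose (71.4%), with a median of 0.48. But only mt-Nd1 (14.3% of the 7, where 18.4% of all tested genes rose) passed without replicate 4 of the controls. That library's summed mt-Nd level of 496 CPM was the lowest of the 4 (the other 3 had 695 to 809 CPM). Of the 10 regulators 2 rose (20%), Pprc1 (0.51) and Tfam (0.15), and 1 fell (10%), Esrra (-0.16), where 19.4% and 19.1% of all tested genes did.

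At 20% oxygen no member was called between MCT4-KO and control cells by edgeR, where 9.76% of all tested genes were (4.96% higher and 4.80% lower). At an unadjusted p under 0.05 edgeR counted 3 members, and DESeq2 and limma-voom also called 0. All 8 assembly factors had changes below 0, of -0.0011 to -0.16, although 4 of the 8 were above 0 under library size scaling, and the subunits had a median of -0.0093, beside -0.0051 over all genes. The values nearest a call were Ndufc1 (-0.16 ± 0.054, edgeR adjusted p = 0.0752), Ndufaf4 (-0.16 ± 0.057, edgeR adjusted p = 0.0927) and Ndufa4 (0.13 ± 0.053, edgeR adjusted p = 0.134). Leaving out 1 library called Ndufa6 and Ndufaf4 (without replicate 4 of the controls at 20%), Ndufa4 (without replicate 1 of MCT4-KO at 20%) or Ndufc1 (without replicate 4 of the controls at 2%). In simulated data for this comparison the test recovered 76% of genes changed 1.2-fold and 100% of those changed 1.5-fold. The changed genes, 50 per fold change, lay above a floor of expression, with the spread taken from the fit and no deviating library. Changes below 1.2-fold, such as that of Ndufaf4 (0.897 times control), were not simulated, so how often changes that small are missed is unknown. Outside the members, Nubpl fell by 0.21, the only call among the 11 further assembly factors tested (9.09%). The rise of mt-Nd3 by 0.52 was the only call among the 7 mt-Nd genes (14.3%). Only 2 of those 7 had changes above 0, and their median was -0.098. Ndufb1-ps fell by 0.22.

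The knockout effect differed between oxygen levels for 8 members (interaction, the effect at 2% minus that at 20%, edgeR adjusted p under 0.05). Higher values were found for 5 of 45 (11.1%) and lower ones for 3 (6.67%), where 22.9% of all tested genes differed, 11.6% higher and 11.3% lower. For Ndufaf4 the knockout effect was 0.48 at 2%, against -0.16 at 20% (interaction 0.64 ± 0.099, edgeR adjusted p = 1.37e-04), so its fall at low oxygen was smaller in MCT4-KO cells. Ndufa12 rose at low oxygen in MCT4-KO cells and not detectably in control cells, with an interaction of 0.40 ± 0.081 (edgeR adjusted p = 0.00147). Ndufab1 (0.29), Ndufc1 (0.24) and Ndufb6 (0.22) were the other 3 with higher values. The call of Ndufab1 was lost without any of 5 libraries (replicates 1 and 2 of MCT4-KO at 2%, replicates 1 and 2 of the controls at 2% and replicate 1 of the controls at 20%), and that of Ndufc1 without replicate 1 of MCT4-KO at 2%. Ndufs8 (-0.27 ± 0.084, edgeR adjusted p = 0.0227) and Ndufb5 (-0.21 ± 0.068, edgeR adjusted p = 0.0320) were among those with lower values, and without replicate 3 of MCT4-KO at 20% the count of lower values was 0. The call of Ndufb5 was lost without any of 6 libraries (values of -0.24 to -0.15 over all libraries left out), and that of Ndufs8 also without replicate 4 of MCT4-KO at 20%. For Ndufv3 the oxygen effect was 1.65 in MCT4-KO and 1.66 in control cells, and the interaction was -0.011 ± 0.051 (edgeR adjusted p = 0.901).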

How the data were processed

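Poly(A) RNA of 16 libraries, 4 in each of 4 groups, was sequenced. Expected counts per gene, as the authors deposited them, are the unit of the table. HISAT2, RSEM and the build mm10 are named in the submitters' processing notes, while versions, annotation and strand setting were not given in the sources used here. Rounding to whole numbers changed 10.1% of the values. Without the strand setting, reads of overlapping genes may be divided wrongly: 19 members share exon bases with another gene and 7 have a copy of at least 95% identity over 80% of the coding sequence.

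Identifiers were matched to GENCODE vM21 (53620 matched, and the 181 others held 0.0237% of the counts). Complex I members, role lists and motifs were chosen with earlier results of these data known. Genes kept by filterByExpr (13774) were fitted in edgeR 4.0.16 (R 4.3.3) with TMM scaling, a mean per group over all 16 libraries, 12 residual degrees of freedom and a coefficient of variation between libraries of 4.61%, and tested by the quasi-likelihood F-test, with Benjamini-Hochberg adjustment over all genes of a comparison and calls under 0.05. Changes are log2 fold changes ± SE and levels are TMM-scaled CPM. Members given in every library were Ndufa4, Ndufa4l2, up to 3 called rises and falls per comparison without overlap (not asked of the interaction) and with a mean log2 CPM of 3 or more, and the called member with the smallest adjusted p per role in the oxygen and knockout comparisons. Ndufaf3 was added after its values were seen. The values of 1 member are not reported here, and it stays in the fit and the counts. Lists are described by counts and medians, without a test.

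Alternatives were DESeq2 1.42.0 size factors and Wald test, limma-voom (limma 3.58.1), library size scaling, no filter, 1 CPM in 8 libraries, fits of only the groups compared, a replicate block, leaving out each library, and another gene length. Every pair of replicates differed beyond sampling noise (chi-square of 1.76 to 12.4 per gene). Tested on simulated data (13534 genes, MCT4-KO against control at 20% oxygen), the method recovered 76% of 1.2-fold and 100% of 1.5-fold, 2-fold and 3-fold changes, with 2.59% false calls. The simulation changed 50 genes per fold change, all above a floor of expression, and took its spread from the fit.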

Additional observations from a re-analysis of the deposited data

Results flagged for a closer look

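A single library stood apart from the other 3 of its group (Dixon's test at the 95% level) in 6 of 182 groups examined, and chance flags about 1 in 20. In controls at 2% oxygen replicate 4 was high for Ndufc2 (101 CPM, the others 80.1 to 81.5), Ndufs7 (95.4 CPM, the others 80.9 to 83.3) and Ndufv1 (112 CPM, the others 98.1 to 99.3). In MCT4-KO cells at 2% oxygen replicate 4 was low for Ndufaf1 (15.4 CPM, the others 17.3 to 17.5), replicate 3 was low for Ndufb9 (78.7 CPM, the others 82.0 to 82.6), and replicate 1 was high for Ndufs5 (45.7 CPM, the others 42.9 to 43.2).

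The effect of the knockout differed between 2% and 20% oxygen by edgeR's interaction test for 8 members. Interaction values above 0 were found for Ndufaf4 (0.64, adjusted p = 1.37e-04), Ndufa12 (0.40, adjusted p = 0.00147), Ndufab1 (0.29, adjusted p = 0.0242), Ndufc1 (0.24, adjusted p = 0.0232) and Ndufb6 (0.22, adjusted p = 0.0158), by edgeR on the log2 scale. Values below 0 were found among others for Ndufs8 (-0.27, adjusted p = 0.0227) and Ndufb5 (-0.21, adjusted p = 0.0320), by edgeR on the same scale.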

How the results depend on the processing

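Library size scaling moved these counts of members. In MCT4-KO against control at 2% oxygen 17 rose (37.8%) and 2 fell (4.44%), where 24.95% of all tested genes rose and 14.6% fell. At low oxygen in control cells 19 rose (42.2%) and 10 fell (22.2%), where 28.1% of all tested genes rose and 51.7% fell. In MCT4-KO cells 7 fell (15.6%), where 50.4% of all tested genes fell. Beside these 7, 25 rose (55.6%), where 27.6% of all tested genes rose. Among oxygen changes given here that were called in the reported fit, the same scaling turned Ndufb9 (-0.034 in MCT4-KO, -0.040 in control) and Ndufa10 (-0.026 in MCT4-KO and -0.099, a call, in control). It also turned Ndufb6 (-0.016, control) and Ndufb2 (-0.010, MCT4-KO), and the interaction of Ndufv3, which was within its error of 0, to 0.015. Oxygen changes not called in the reported fit, such as those of Ndufv1, are not listed here and also turned in part. By construction this scaling shifts all genes alike within a library.

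Leaving out each library in turn gave 0 to 1 members higher and 0 to 2 lower for the knockout at 20% oxygen, and 6 to 16 higher and 2 to 5 lower at 2%, where the extremes of 16 and 2 came without replicate 4 of the controls at 2%. The interaction gave 0 to 3 lower members, with 0 without replicate 3 of MCT4-KO at 20%, and the Ndufv3 interaction ranged from -0.041 to 0.015. The cause of these shifts was not tested.

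Replicate numbers did not pair the libraries (correlations of -0.049 to 0.067), so they share only a number. The replicate block gave 6 members higher and 3 lower for the knockout at 2%, 0 and 0 at 20%, 34 and 3 at low oxygen in MCT4-KO cells, 32 and 4 in control cells, and 5 and 2 for the interaction. Under the other alternatives run (DESeq2, limma-voom, the filters and the fit of the compared groups only) the counts of members stayed within 1.5 times those reported, in every comparison. Ndufa4l2 had too few counts for a test.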
